A study of Homo sapiens with 4 samples.

Results

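The genes described here are 34 genes of programmed cell death, taken from a list of BCL2 family members, inhibitors of apoptosis, caspases and their cofactors and matched by symbol to the 60433 gene identifiers counted. RNA was measured by sequencing of polyadenylated transcripts in H9 (also named WA09), a widely used line of human embryonic stem cells. There were 2 control libraries, and 2 from H9 cells with the genotype SLC35F2 KO (KO for knockout). No drug or other agent is named for either group, and the labels do not say how the knockout was made, whether the KO libraries come from 1 clone or several, or whether libraries of a group were separate cultures, and p-values here reflect only how far these libraries scatter, possibly for technical reasons. SLC35F2 encodes a membrane transporter through which YM155 is known to enter cells; YM155 is a compound developed to lower survivin, the product of BIRC5.

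Cells commit to intrinsic apoptosis when the outer membrane of their mitochondria is opened by the effector proteins BAX and BAK1. Survival members of the BCL2 family hold the effectors in check, and BH3-only proteins, which carry just the short BH3 helix of the family, bind the survival members or the effectors and tip the balance. Cytochrome c then leaves the mitochondria and forms the apoptosome with APAF1, which activates caspase-9, while inhibitors of apoptosis restrain caspases. Human embryonic stem cells are known to stand close to the threshold of mitochondrial apoptosis and to die readily after DNA damage or dissociation.

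The libraries held 27824693 to 37978705 reads assigned to genes. Both KO libraries had less RNA of the targeted gene, with SLC35F2 at 41.1 and 27.1 CPM in control 1 and control 2 and at 12.1 and 9.65 CPM in KO 1 and KO 2 (CPM, a gene's reads over the scaled total of its library). All 5 stem cell markers checked were present in all 4 libraries, with a summed level of 3158 to 4462 CPM. The 5 fibroblast markers summed to 256 and 523 CPM in control libraries versus 150 and 788 CPM in KO libraries, nearly all of it from 2 collagen genes. Of the other markers, PDGFRB had 268 to 878 reads per library, and DCN and LUM had 0 to 4. The 2 KO libraries differed from each other more than the controls did, with a median absolute log2 difference of 0.48 over the apoptosis genes tested between the KO libraries and 0.28 between the controls. The same medians over all 19027 genes tested were 0.43 and 0.30.

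Of the 34 apoptosis genes, 32 had enough reads to be tested. The leukocyte survival gene BCL2A1 (0 to 2 reads per library) and the inhibitor of apoptosis BIRC3 (1 to 15 reads) did not. None of the 32 was called, that is, had a Benjamini-Hochberg adjusted p under 0.05 over all genes in edgeR's quasi-likelihood test. Each had an adjusted p of 0.997. The targeted gene SLC35F2 was not called either (log2 fold change, KO over control, -1.65, unadjusted p = 0.00124 and adjusted p = 0.580 in edgeR). Calls made up 0.0263% of all genes tested (5 of 19027). At an unadjusted p under 0.05 edgeR placed 1 of the 32, PMAIP1, against 4.06% of all genes. DESeq2 called 0 of the 34 (0.164% of all genes) and placed 2 at an unadjusted p under 0.05 (2.19%). Quantile normalisation with limma called 0 of the 32 (0.00526%) and also placed 2 (3.11%). The 95% confidence interval of the log2 fold change (KO over control) included 0 for 31 of the 32 genes, with a median standard error of 0.33.

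Without a call, the genes still differed in how their libraries fell. Of the 32 genes, 11 had both KO libraries above both controls, where 15.8% of all genes were, and 4 had both below, where 16.3% of all genes were. The higher genes were BCL2, BCL2L1, BCL2L2, BAK1, BAD, BMF, XIAP, BIRC5, DIABLO, HTRA2 and FADD. The lower genes were MCL1, BAX, PMAIP1 and AIFM1. The median log2 fold change was 0.22 over the 32 genes and 0.029 over all genes. The split depended on the scaling of the libraries. Scaling by library size only shifted the median of all genes from 0.029 to -0.097, and then 6 apoptosis genes were higher in both KO libraries (all genes 10.2%) and 5 were lower (all genes 21.3%). BCL2, BCL2L1, BAK1, BAD, BIRC5 and HTRA2 stood among the higher genes, and MCL1, BAX and PMAIP1 among the lower, under every scaling, filter and tool tried with all 4 libraries. KO 2 was the highest library for 19 of the 32 genes, and for 33.4% of all genes. KO 2 also had the highest fibroblast marker sum (788 CPM) and the highest neuroectoderm marker sum (1145 CPM, 587 to 911 in the other libraries). NANOG (19.1 CPM, 46.2 to 64.7 in the others) and DNMT3B (662 CPM, 1302 to 1743) were lowest in KO 2. So was POU5F1 (227 CPM, 282 to 401). SOX2 was highest in KO 2 (427 CPM, 314 to 365), and LIN28A was neither (1824 CPM, 1691 to 2138). Of the neuroectoderm markers, NES, OTX2 and SOX1 were highest in KO 2 (919, 224 and 0.731 CPM) and PAX6 was lowest (0.643 CPM). The part of these marker differences in the levels of the apoptosis genes was not tested.

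**Figure D1:**
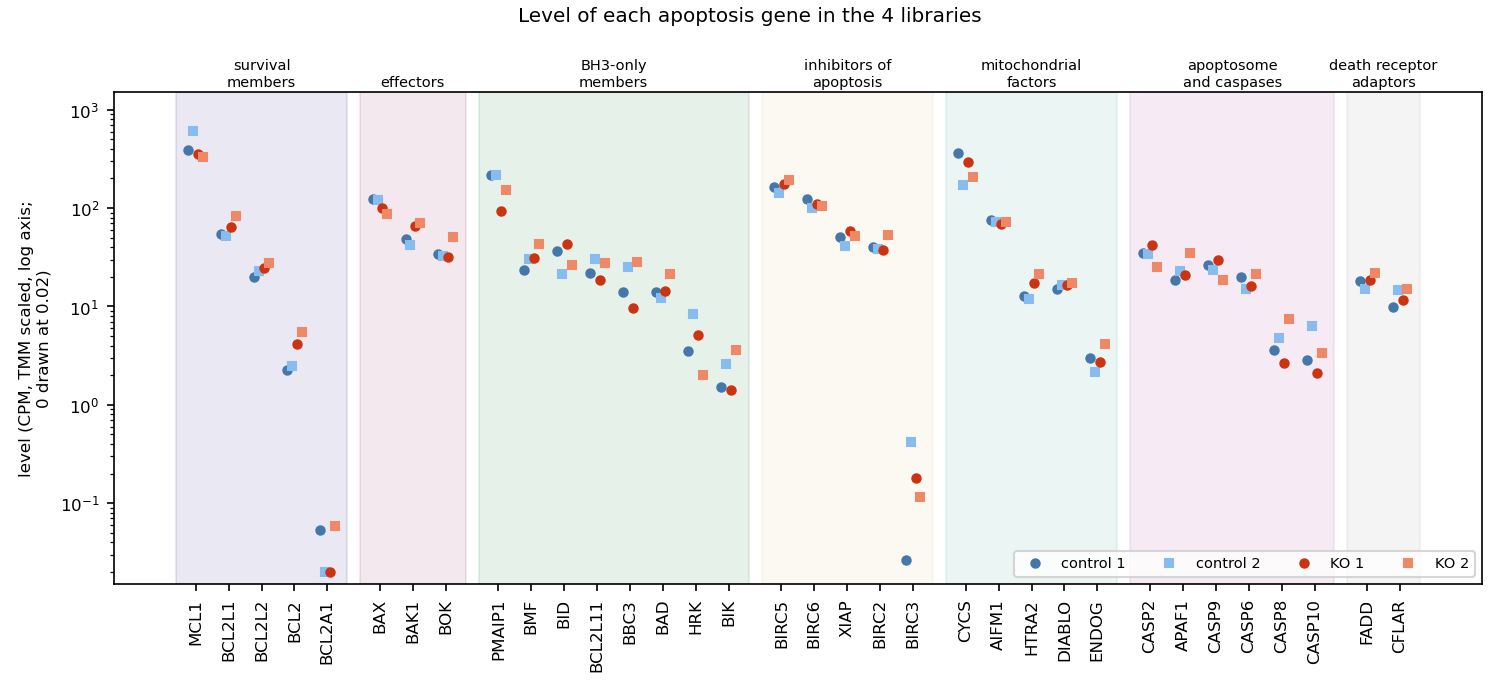
Level in CPM on a log axis (values of 0 are drawn at 0.02) of the 34 apoptosis genes, grouped by role, with 1 point for each library. MCL1 reaches 603 CPM in control 2, while BCL2A1 and BIRC3 stay under 0.5 CPM in all 4 libraries.

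**Figure D2:**
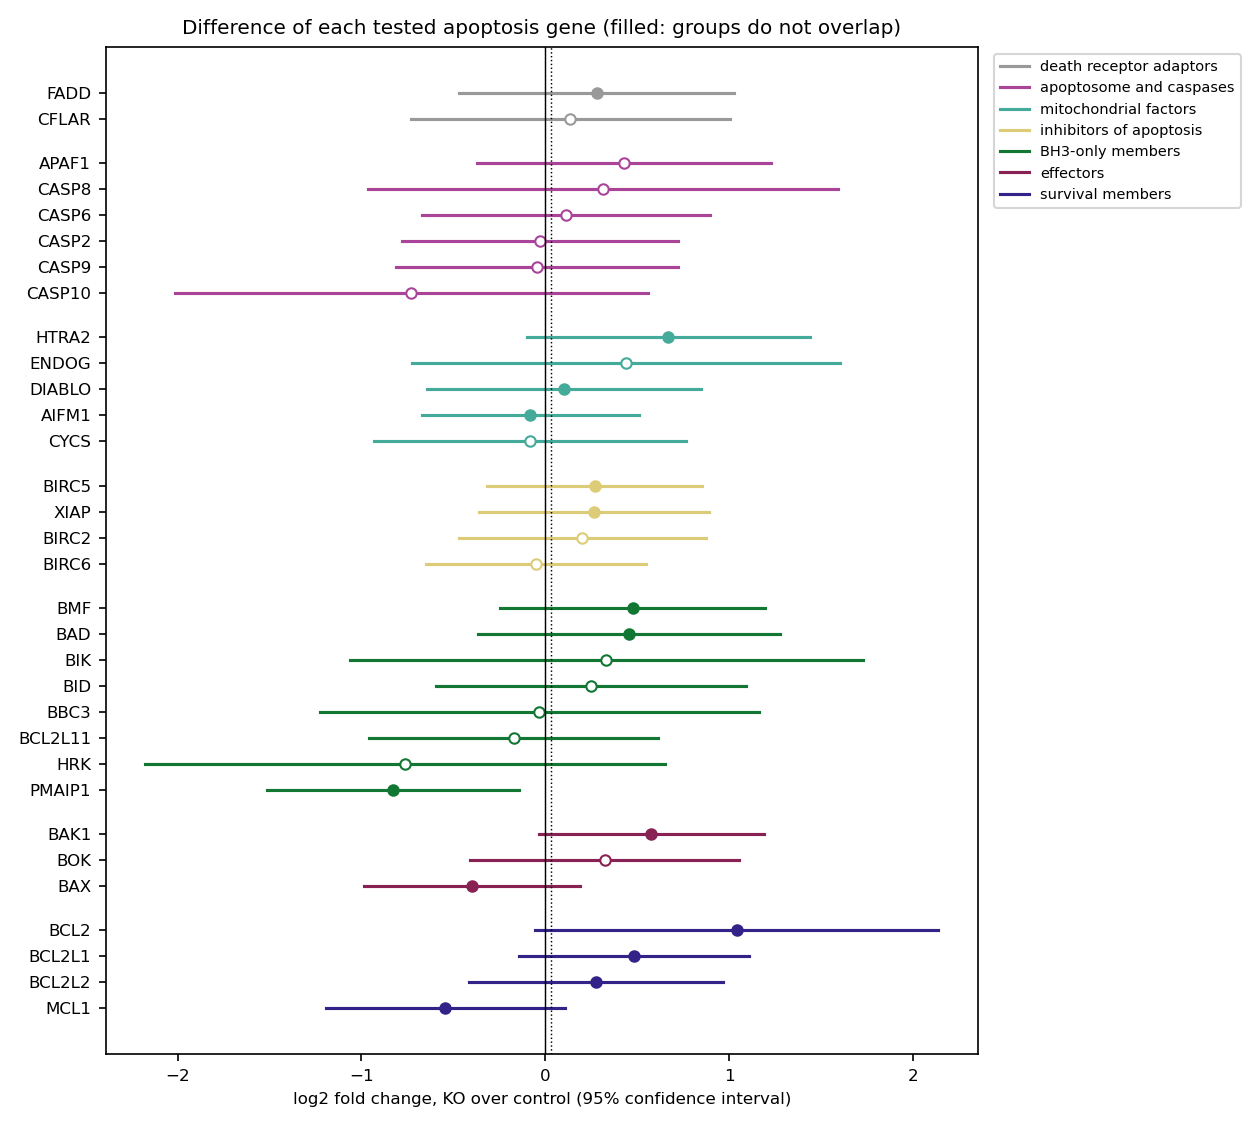
Log2 fold change, KO over control, with its 95% confidence interval from edgeR for the 32 tested genes, coloured by role. Filled points mark genes whose 2 KO libraries do not overlap the 2 controls, the dotted line is the median of all genes (0.029), and only the interval of PMAIP1 leaves out 0.

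Among the survival members, MCL1 carried most of the RNA. MCL1 (ENSG00000143384.11, chromosome 1, 150574551 to 150579738, minus strand of GRCh38) encodes a short-lived survival protein on which many cells depend. It had 390 and 603 CPM in control libraries versus 355 and 327 CPM in KO libraries. Both KO libraries were below both controls, but the controls lay further apart than the KO libraries did from control 1. The means were 497 ± 150 and 341 ± 19.6 CPM (SD, n = 2 per group), and the log2 fold change was -0.54 ± 0.29 (SE, 95% interval -1.20 to 0.11). Without control 2 it was -0.20, and without control 1 it was -0.81.

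The other 3 tested survival members were higher in both KO libraries. BCL2L1 (ENSG00000171552.11, chromosome 20, 31664452 to 31723989, minus strand), which encodes BCL-XL, had 53.9 and 52.3 CPM in control libraries versus 64.9 and 83.6 CPM in KO libraries. The controls were close together and KO 2 was the highest library. The means were 53.1 ± 1.13 and 74.2 ± 13.2 CPM (SD, n = 2 per group), and the log2 fold change was 0.48 ± 0.28 (95% interval -0.14 to 1.11). Of the exon bases of BCL2L1, 43.0% are shared with ABALON on the opposite strand, which had 38 to 64 reads per library. How reads there were counted depends on the strand setting of the counting, which is not stated. BCL2 itself (ENSG00000171791.11, chromosome 18, 63123346 to 63320128, minus strand), the founding member of the family, was scarce, with 86 and 88 reads in control and 115 and 190 in KO. These reads correspond to 2.28 and 2.48 CPM against 4.18 and 5.56 CPM, and the log2 fold change was 1.04 ± 0.48 (95% interval -0.06 to 2.14), the largest among the 32 genes. BCL2L2, which encodes BCL-W, had 20.1 and 23.2 CPM against 24.6 and 27.8 CPM (log2 fold change 0.27, interval -0.42 to 0.97). It was no longer apart between the groups with library size only.

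Levels of different genes were compared per kilobase of merged exons. On that scale MCL1 made up 80.7% and 86.5% of the summed level of the survival members in the controls and 75.9% and 69.8% in KO. BCL2L1 made up 14.7% and 9.90% in control and 18.3% and 23.5% in KO. BCL2 stayed under 0.5% in every library. The ratio of MCL1 to BCL2L1 within a library does not depend on how libraries are scaled. It was 5.49 and 8.74 in control and 4.14 and 2.97 in KO, so the groups did not overlap, and the geometric means differed 1.98-fold. An exact permutation test of the log2 ratio, two-sided, gave p = 0.333, the smallest value that 2 libraries against 2 can give. This pair of genes, like the other pairs set in ratio here, was chosen after the values were seen.

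The effectors BAX and BAK1 stood on opposite sides. BAX (ENSG00000087088.18, chromosome 19, 48954815 to 48961798, plus strand), which moves from the cytosol to mitochondria when activated, had 123 and 122 CPM in control libraries versus 99.6 and 86.1 CPM in KO libraries. The controls agreed within 1 CPM of their mean and both KO libraries were below them (122 ± 0.787 and 92.9 ± 9.60 CPM, SD, n = 2 per group). Its log2 fold change was -0.40 ± 0.26 (interval -0.99 to 0.19). BAK1 (ENSG00000030110.11, chromosome 6, 33572547 to 33580293, minus strand), which resides in the mitochondrial membrane, had 48.5 and 42.3 CPM in control libraries versus 65.1 and 70.2 CPM in KO libraries. Both KO libraries were above both controls (45.4 ± 4.42 and 67.7 ± 3.56 CPM, SD, n = 2 per group), and the log2 fold change was 0.58 ± 0.27 (95% interval -0.04 to 1.19). BOK, a relative of the effectors that is controlled by its degradation, had 33.9 and 32.3 CPM in control libraries, with KO 1 at 31.5 CPM and KO 2 at 51.3 CPM. Only KO 2 stood apart for BOK.

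Per kilobase of merged exons, the ratio of BAX to BAK1 was 2.17 and 2.46 in control and 1.31 and 1.05 in KO. The groups did not overlap, and the difference of 1.97-fold was larger than the spread within either group (exact permutation test, two-sided, p = 0.333, the smallest possible). The size of the ratio depends on the length used, while its fold difference between groups does not. Over the 4 libraries BAX had a mean of 41.6 CPM per kilobase with merged exons and 175 with the median length of protein-coding transcripts. BAK1 had 25.6 and 26.5. The summed level of the 3 effectors overlapped between groups, at 82.0 and 78.1 CPM per kilobase in control and 79.6 and 83.9 in KO. With the median length of protein-coding transcripts the sum of both KO libraries was below both controls, at 236 and 231 in control and 205 and 192 in KO. The summed survival members had 111 and 159 CPM per kilobase in control and 107 and 107 in KO. Their ratio to the effectors was 1.35 and 2.04 in control and 1.34 and 1.28 in KO (exact permutation test, two-sided, p = 0.333, the smallest possible). With reads not divided by length the groups overlapped, at 2.27 and 3.47 in control and 2.28 and 2.14 in KO (p = 0.667 in the exact test). With the median length of protein-coding transcripts in place of merged exons they overlapped too, at 0.571 and 0.839 against 0.638 and 0.683 (p = 1.0 in the exact test).

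**Figure D3:**
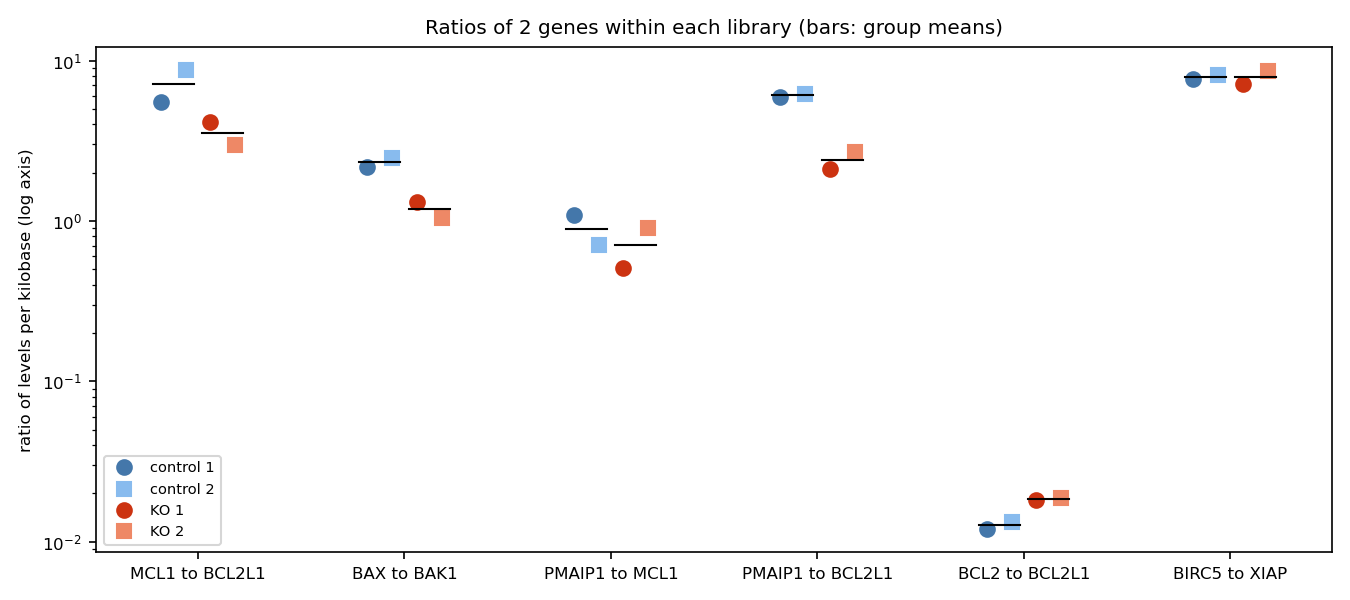
Ratio of the levels per kilobase of merged exons of 2 genes within each library on a log axis, with 1 point for each library and a bar for each group mean. MCL1 to BCL2L1, BAX to BAK1 and PMAIP1 to BCL2L1 have both KO points below both control points, BCL2 to BCL2L1 has both above, while PMAIP1 to MCL1 and BIRC5 to XIAP overlap.

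PMAIP1 had the smallest p of all the apoptosis genes. PMAIP1 (ENSG00000141682.11, chromosome 18, 59899948 to 59904306, plus strand) encodes NOXA, a BH3-only protein that binds MCL1 and promotes its degradation. It had 216 and 218 CPM in control libraries versus 92.8 and 151 CPM in KO libraries. The controls were nearly equal, both KO libraries were below them, and KO 1 was the lowest (217 ± 1.84 and 122 ± 41.4 CPM, SD, n = 2 per group). The log2 fold change was -0.83 ± 0.30 (95% interval -1.52 to -0.14). In edgeR its unadjusted p was 0.0231 and its adjusted p 0.997. Over the alternatives its adjusted p was smallest, in edgeR, when KO 2 was left out (0.0945, log2 fold change -1.22), and with KO 1 left out the log2 fold change was -0.51. PMAIP1 was the second most abundant of the 34 genes per kilobase of merged exons after MCL1, and the fourth with the median length of protein-coding transcripts.

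The ratio of PMAIP1 to BCL2L1 showed the widest gap of the 6 pairs tried. It was 5.93 and 6.19 in control and 2.12 and 2.69 in KO, a 2.54-fold difference (exact permutation test, two-sided, p = 0.333, the smallest possible). The ratio of PMAIP1 to MCL1, its binding partner, overlapped between groups, at 1.08 and 0.708 in control and 0.512 and 0.906 in KO. The ratio of BCL2 to BCL2L1 was higher in both KO libraries, at 0.0119 and 0.0133 in control and 0.0181 and 0.0187 in KO, a 1.46-fold difference (exact permutation test, two-sided, p = 0.333, the smallest possible).

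The promoters of 4 genes are shown because these genes fell on opposite sides, PMAIP1 and BAX lower and BAK1 and BCL2L1 higher in both KO libraries. Each is the RefSeq window of GRCh38.p14 from 250 bases before to 50 bases after a transcription start, read 5′ to 3′ on the gene's strand. RefSeq windows were matched for 29 of the 34 genes. Capitals mark matches on either strand to CACGTG (E-box), GGGCGG (GC box), TGACG (the core of a cyclic AMP response element), CCAAT or TATAAA. The windows lie at chr18:59899746-59900045 (PMAIP1, plus strand), chr19:48954625-48954924 (BAX, plus strand), chr6:33580227-33580526 (BAK1, minus strand) and chr20:31723914-31724213 (BCL2L1, minus strand, the farther upstream of 2 starts).
PMAIP1: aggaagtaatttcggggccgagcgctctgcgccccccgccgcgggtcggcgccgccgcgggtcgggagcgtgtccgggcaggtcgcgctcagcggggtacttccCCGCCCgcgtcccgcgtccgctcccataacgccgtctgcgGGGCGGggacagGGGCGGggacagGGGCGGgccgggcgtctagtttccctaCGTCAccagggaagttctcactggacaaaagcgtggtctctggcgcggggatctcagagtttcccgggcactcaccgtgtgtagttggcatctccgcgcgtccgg
BAX: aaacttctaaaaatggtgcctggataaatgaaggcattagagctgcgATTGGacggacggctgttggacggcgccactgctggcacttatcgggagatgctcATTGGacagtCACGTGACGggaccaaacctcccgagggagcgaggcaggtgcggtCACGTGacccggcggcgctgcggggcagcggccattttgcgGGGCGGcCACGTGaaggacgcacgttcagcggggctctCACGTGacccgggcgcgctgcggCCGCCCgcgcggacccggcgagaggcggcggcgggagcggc
BAK1: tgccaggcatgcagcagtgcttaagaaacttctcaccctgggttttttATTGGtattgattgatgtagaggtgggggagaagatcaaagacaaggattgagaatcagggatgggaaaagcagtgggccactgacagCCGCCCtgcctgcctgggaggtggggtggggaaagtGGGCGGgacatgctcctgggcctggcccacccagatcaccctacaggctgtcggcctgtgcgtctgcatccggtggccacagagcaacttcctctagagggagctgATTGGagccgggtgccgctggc
BCL2L1: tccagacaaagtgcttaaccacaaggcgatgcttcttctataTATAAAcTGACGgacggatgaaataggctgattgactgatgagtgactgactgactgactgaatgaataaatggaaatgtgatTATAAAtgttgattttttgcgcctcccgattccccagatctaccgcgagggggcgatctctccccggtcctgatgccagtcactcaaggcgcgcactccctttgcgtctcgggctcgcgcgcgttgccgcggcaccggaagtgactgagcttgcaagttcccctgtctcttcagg

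Matches were shared across both sides. BAX and BAK1 each held 2 GC box matches and 2 to CCAAT, and PMAIP1, BAX and BCL2L1 each held 1 match to TGACG. BAX also held 4 E-box matches, a number reached by 5 of 35116 windows of this length (0.0142%), and the first of them overlaps the match to TGACG. A single E-box match or more was found in 7.26% of all windows. PMAIP1 held 4 GC box matches (4 or more in 9.06% of all windows). Matches to TGACG were found in 24.6% of all windows. Windows with 2 or more matches made up 26.7% for the GC box and 10.8% for CCAAT. The BCL2L1 window shown held no GC box and 2 matches to TATAAA (2 or more in 2.36%). The window of the other BCL2L1 start (chr20:31722819-31723118) differed, with 1 GC box match, 0 to TGACG and 0 to TATAAA. The base composition also differed, from 71.3% G and C in PMAIP1 and 67.3% in BAX to 58.7% in BAK1 and 52.0% in BCL2L1. A match describes letters and not a bound factor, and no binding was measured.

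The remaining BH3-only genes were split. BAD, whose protein is held inactive by growth factor signalling, had 14.1 and 12.1 CPM in control libraries versus 14.4 and 21.4 CPM in KO libraries (log2 fold change 0.45, interval -0.36 to 1.27). KO 1 exceeded control 1 only slightly, and 23.7% of the exon bases of BAD are shared with GPR137 on the opposite strand, which had 698 to 1112 reads per library. BMF, which is tied to the cytoskeleton, had 23.2 and 30.1 CPM against 31.0 and 43.1 CPM (log2 fold change 0.47, interval -0.24 to 1.19).

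BBC3, which encodes PUMA, had a log2 fold change of -0.03 with an interval from -1.23 to 1.16. Its levels were 14.1 and 25.2 CPM in control libraries, with KO 1 at 9.64 CPM and KO 2 at 28.6 CPM. The KO libraries thus bracketed the controls, and the log2 fold change was 0.56 without KO 1 and -1.03 without KO 2. KO 2 was the highest and KO 1 the lowest library for BBC3, BIK, BOK, BIRC2 and CASP8, 5 of the 32 genes (15.6%), and for 12.7% of all genes.

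BID, which links caspase-8 to mitochondria, had 36.7 CPM in control 1 and 21.6 CPM in control 2, beside 42.7 CPM in KO 1 and 26.6 CPM in KO 2. Here both libraries numbered 1 were above both numbered 2, as for 5 of the 32 genes and 22.0% of all genes. BCL2L11, which encodes BIM, had 22.0 and 30.2 CPM against 18.4 and 27.9 CPM (log2 fold change -0.17, interval -0.96 to 0.61). HRK and BIK were scarce, at 1.99 to 8.36 CPM and 1.42 to 3.63 CPM over the 4 libraries, and both groups overlapped.

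**Figure D4:**
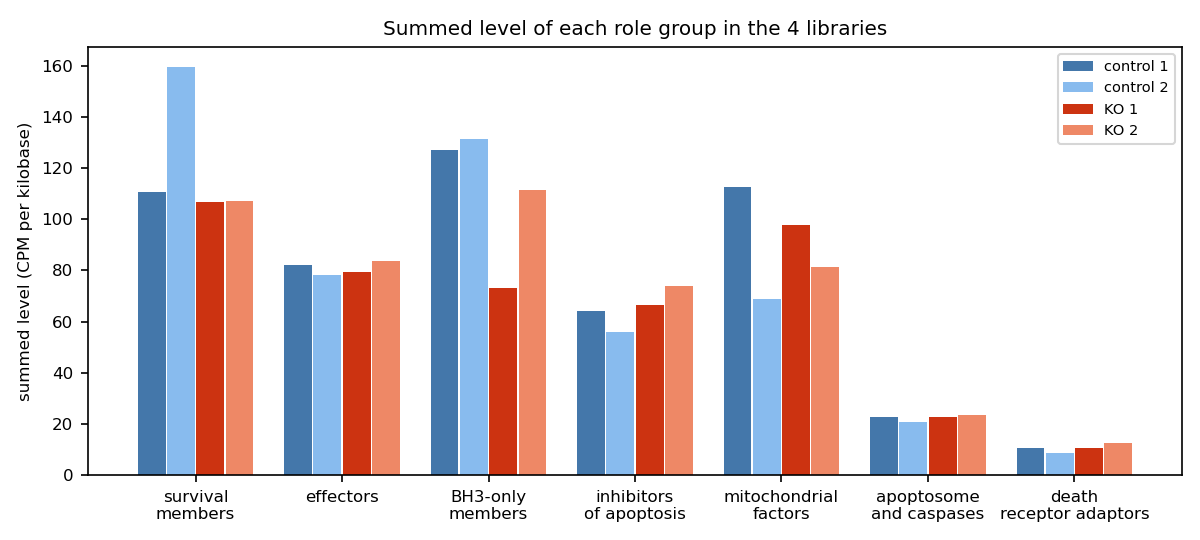
Summed level of each role group in CPM per kilobase of merged exons, with 1 bar for each library. The effectors lie between 78.1 and 83.9 in all libraries, and the BH3-only sum of KO 1 (73.3) is the lowest of its 4 bars.

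The inhibitors of apoptosis showed small differences. BIRC5 (ENSG00000089685.13, chromosome 17, 78214186 to 78225636, plus strand) encodes survivin, which binds the chromosomal passenger complex during mitosis and is made mainly in dividing cells. It had 162 and 142 CPM in control libraries versus 174 and 192 CPM in KO libraries. Both KO libraries were above both controls, but the gap between KO 1 and control 1 was smaller than the gap between the controls (152 ± 14.4 and 183 ± 12.4 CPM, SD, n = 2 per group). The log2 fold change was 0.27 ± 0.26 with an interval from -0.31 to 0.85, which leaves out differences of 2-fold in either direction. BIRC5 made up 66.5% and 66.5% of the summed level of the inhibitors per kilobase in control and 68.6% and 68.2% in KO.

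XIAP, which binds and blocks active caspases directly, had 50.3 and 41.5 CPM in control libraries versus 57.9 and 52.4 CPM in KO libraries (log2 fold change 0.26, interval -0.36 to 0.89). The ratio of BIRC5 to XIAP was 7.63 and 8.09 in control and 7.12 and 8.66 in KO, with overlap. BIRC2, a ubiquitin ligase of receptor signalling also called cIAP1, had 40.2 and 38.6 CPM in control libraries, with KO 1 at 37.6 CPM and KO 2 at 52.9 CPM. BIRC6, a very large ubiquitin ligase, had 124 and 99.8 CPM against 110 and 106 CPM (log2 fold change -0.05, interval -0.65 to 0.55).

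The genes that act with survivin in the chromosomal passenger complex lay on the same side as BIRC5. AURKB, its kinase, had 88.4 and 70.5 CPM in control libraries versus 92.4 and 112 CPM in KO libraries, INCENP, its scaffold, 74.4 and 78.1 against 96.0 and 114 CPM, and CDCA8, which encodes borealin, 71.8 and 65.8 against 81.6 and 107 CPM. Of the 10 genes listed for this complex and for mitosis, 0 were called by edgeR, 1 had an unadjusted p under 0.05 (all genes 4.06%) and 5 were higher in both KO libraries (all genes 15.8%), with a median log2 fold change of 0.44. That gene was CDC20, an activator of the anaphase-promoting complex, with 185 and 135 CPM in control libraries versus 218 and 296 CPM in KO libraries (unadjusted p = 0.0446 and adjusted p = 0.997 in edgeR). The part of dividing cells in the levels of BIRC5 was not tested.

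Among the factors released from mitochondria, CYCS and AIFM1 were the most abundant. CYCS, which encodes cytochrome c, varied by replicate number and not by group, with 359 CPM in control 1 and 172 CPM in control 2, beside 295 CPM in KO 1 and 206 CPM in KO 2 (log2 fold change -0.08, interval -0.93 to 0.77). AIFM1, a flavoprotein that can move to the nucleus in cell death, was the steadiest of these genes, at 76.3 and 73.0 CPM in control libraries versus 68.6 and 72.5 CPM in KO libraries (log2 fold change -0.08, interval -0.67 to 0.51). The gap between control 2 and KO 2 was smaller than the spread within either group. HTRA2, a mitochondrial protease that also removes inhibitors of apoptosis, had 12.7 and 11.8 CPM in control libraries versus 17.4 and 21.6 CPM in KO libraries. Both KO libraries were above both controls (12.3 ± 0.578 and 19.5 ± 2.95 CPM, SD, n = 2 per group), and the log2 fold change was 0.67 ± 0.34 (95% interval -0.10 to 1.44). Exons of HTRA2 overlap those of AUP1 over 483 bases and of LOXL3 over 625 bases, both on the opposite strand, and reads there cannot be told apart without the strand setting of the counting. DIABLO, which encodes the inhibitor of XIAP also called SMAC, had 15.2 and 16.5 CPM against 16.5 and 17.5 CPM, and its sign turned with library size only. ENDOG, a mitochondrial nuclease, had 2.14 to 4.15 CPM over the 4 libraries, and 39.2% of its exon bases are shared with SPOUT1 on the opposite strand.

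None of the 6 genes of the apoptosome and the caspases was apart between the groups, where 15.8% of all genes were higher and 16.3% lower in both KO libraries. APAF1, the scaffold of the apoptosome, had 18.6 and 22.9 CPM in control libraries, with KO 1 at 20.8 CPM and KO 2 at 34.9 CPM. CASP9, the initiator caspase of the apoptosome, had 26.5 and 23.6 CPM in control libraries, with KO 1 at 29.9 CPM and KO 2 at 18.7 CPM. CASP2, an initiator linked to the response to DNA damage and failed division, showed the same order of KO libraries, with 42.5 CPM in KO 1 and 25.2 CPM in KO 2 around controls of 34.7 and 34.3 CPM. CASP9 and CASP2 were the only ones of the 32 genes with KO 1 highest and KO 2 lowest, an order found in 11.7% of all genes. CASP6, an executioner caspase that cleaves lamins, had 19.7 and 14.9 CPM against 16.2 and 21.2 CPM (log2 fold change 0.11, interval -0.67 to 0.89).

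The initiators of the death receptor route were near the low end. CASP8 had 135 and 168 reads in control and 74 and 256 reads in KO, which is 3.58 and 4.73 CPM against 2.69 and 7.49 CPM. CASP10 had 2.86 and 6.33 CPM in control libraries versus 2.11 and 3.36 CPM in KO libraries (log2 fold change -0.73, interval -2.01 to 0.56). FADD, the adaptor that joins receptors to these caspases, had 18.3 and 14.9 CPM in control libraries versus 18.4 and 21.9 CPM in KO libraries, and KO 1 exceeded control 1 by a margin far below the spread within the groups. CFLAR, which encodes the caspase-8 inhibitor FLIP, had 9.86 and 14.6 CPM against 11.7 and 15.2 CPM.

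Other genes of the pathway, from lists of related genes, gave no call either in edgeR. Of 10 further BCL2 relatives 8 were tested, with 1 at an unadjusted p under 0.05 (all genes 4.06%), 0 higher (15.8%) and 3 lower (16.3%) in both KO libraries. That gene was BCL2L14, with 52 and 58 reads in control and 11 and 22 in KO (log2 fold change -1.49, interval -2.89 to -0.09, unadjusted p = 0.0392 and adjusted p = 0.997 in edgeR). BNIP3, a mitochondrial receptor of mitophagy induced by low oxygen, had 34.9 and 80.0 CPM in control libraries, with KO 1 at 26.1 CPM and KO 2 at 92.4 CPM. Of 13 death receptor and signalling genes 10 were tested, with 2 higher and 1 lower in both KO libraries, near the shares of all genes (15.8% and 16.3%). TRAF2, an adaptor of tumour necrosis factor receptors, had 36.8 and 36.4 CPM against 54.3 and 51.7 CPM (log2 fold change 0.54, interval -0.08 to 1.15), and TNFRSF21, also called death receptor 6, had 55.8 and 64.0 against 57.9 and 49.1 CPM. TNF and FASLG had 0 reads in all 4 libraries.

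Of 10 genes of mitochondrial channels and cristae, 2 were higher and 0 lower in both KO libraries (all genes 15.8% and 16.3%). Of 8 substrates and nucleases of the execution phase, 1 was higher and 0 lower, beside the same shares of all genes. PARP1, a DNA repair enzyme cleaved by caspases, had 768 and 667 CPM in control libraries versus 724 and 700 CPM in KO libraries. None of the 6 genes for the other caspases, NAIP and BIRC7 had enough reads to be tested.

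BCL2L1 lies in 20q11.21, a segment that is known to be gained recurrently in cultured human pluripotent stem cells, so its level was set beside those of its neighbours. Of 14 tested neighbours 12 were above both controls in KO 2, where 38.6% of all genes were, and 6 were above both controls in KO 1, where 35.0% of all genes were. The starts of these neighbours lay at -210 to 634 kb from that of BCL2L1, and other genes of the segment were not set beside it. The median log2 level over the control mean was 0.44 for the neighbours in KO 2 and 0.057 in KO 1. Over all genes these medians were near 0 in both (-0.0063 and -0.0096). BCL2L1 stood at 0.65 in KO 2 and 0.29 in KO 1 on the same scale. TPX2, a spindle assembly factor whose start lies 15.3 kb from that of BCL2L1, had 162 and 182 CPM in control libraries, with KO 1 at 179 CPM and KO 2 at 435 CPM. TM9SF4 stood at 1.20 in KO 2 and 0.060 in KO 1. The KO libraries were close to each other for HM13 (0.30 in KO 2 and 0.28 in KO 1), PLAGL2 (0.38 and 0.36) and ASXL1 (0.40 and 0.48). TM9SF4, HM13, PLAGL2 and ASXL1 were named after their values were seen. KO 2 was above KO 1 for 12 of the 14 neighbours. ID1, an inhibitor of differentiation factors that responds to BMP signals, went the other way, with 92.8 and 177 CPM in control libraries versus 29.9 and 52.8 CPM in KO libraries (log2 fold change -1.70, unadjusted p = 0.00236 and adjusted p = 0.808 in edgeR). Without KO 2 the log2 fold change of BCL2L1 was 0.29, and without KO 1 it was 0.67. Copy number was not measured, and its part in the level of BCL2L1 was not tested.

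**Figure D5:**
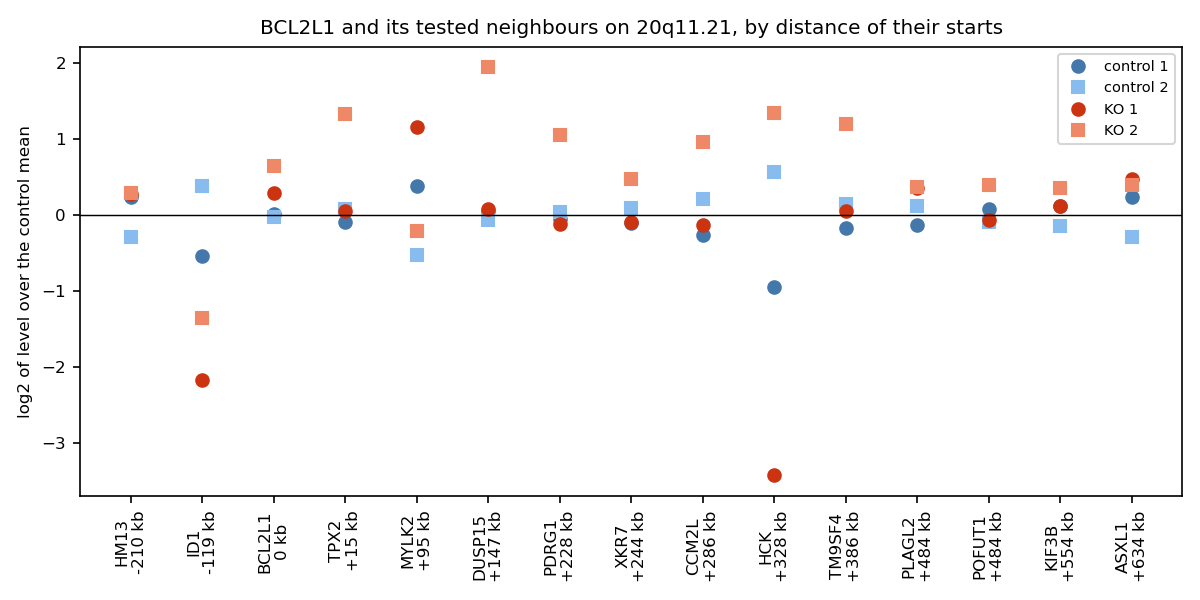
Log2 of the level over the control mean in each library for BCL2L1 and its 14 tested neighbours, in the order of the distance of their starts from that of BCL2L1. Points of KO 2 lie above both controls for 12 of the 14 neighbours and those of KO 1 for 6.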

How the data were processed

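RNA of 2 control and 2 SLC35F2 KO libraries of H9 cells was sequenced after Trizol and column purification with a stranded mRNA kit, per the labels' protocols. The submitters' processing notes name STAR 2.6.0a, HTSeq 0.11.0, cutadapt 1.8.1 and FastQC 0.11.7, with the build GRCh38. Neither the annotation release nor the strand setting is stated in the sources used here. Each deposited file holds raw counts of reads for every gene as whole numbers. The labels' protocols also name quantile normalisation, which whole numbers with unequal totals do not carry. Reads given to no gene (14.4% to 20.3% per library) were left out.

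Symbols, positions and merged exon lengths came from GENCODE 29 (56753 of 60433 identifiers matched). Exons of 18 of the 34 genes overlap another gene, 17 on the opposite strand. Genes passed edgeR's filterByExpr (minimum count 10), libraries were scaled by TMM, and groups were compared by the robust, two-sided quasi-likelihood F test of edgeR 4.0.16 with Benjamini-Hochberg adjustment over 19027 genes. The common dispersion was 0.132. Alternatives used RLE factors, library size only, DESeq2 1.42.0, quantile normalisation with limma 3.58.1, other filters, a replicate block and each library left out. Tested on simulated data for this comparison (18338 genes), edgeR's test found 4 of 50 genes at a true difference of 2-fold. It found 34 of 50 at 4-fold, 46 at 8-fold and 49 at 32-fold, and it called 10 genes that had been left the same. Replicates were no copies (chi-square per degree of freedom 54.6 and 124). The genes and lists were chosen with earlier results of these data known. Genes were named if on a short list (BIRC5, BCL2L1, MCL1, BCL2, BAX, BAK1), if their unadjusted p was under 0.05, if their groups were apart with an absolute log2 fold change of at least 0.5, or if they were among the 2 most abundant per kilobase in their role. The remaining genes are given by levels, counts and ranges, and some with their fold change. Exact permutation tests were run over the 4 libraries.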

Additional observations from a re-analysis of the deposited data

How the results depend on the processing

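No apoptosis gene was called in any of the 11 alternatives for the test of single genes, where their smallest adjusted p was 0.0945. Of the 32 genes 17 kept their sign in all of them. The number of genes called over the whole table, 5, was 0 with library size only, 8 with no filter, 0 with a mean CPM of at least 1, 61 with DESeq2, 1 with quantile normalisation, 0 at a threshold of 0.01, and 3 to 1096 with 1 library left out (188 without KO 2 and 1096 without KO 1). The replicate block called 76 genes and no apoptosis gene (smallest adjusted p 0.223, PMAIP1). The labels do not say that a number marks a shared culture or day, and deviations of same-numbered libraries correlated at 0.38. The 11 genes higher in both KO libraries became 6 with library size only (all genes 10.2%). With 1 library left out they became 13 to 20 (all genes 27.4% to 38.1%), where fewer libraries have to be apart. The 4 lower genes became 6 to 11 with 1 library left out (all genes 27.4% to 37.8%). Without KO 2, 42.4% of the apoptosis genes were higher and 33.3% lower, against 34.0% and 35.9% of all genes. The median log2 fold change of the 32 genes ranged from 0.0091 (without KO 2) to 0.32 (without KO 1).

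Signs turned with library size only for DIABLO (-0.029), CASP6 (-0.013) and CFLAR (-0.0083). With 1 library left out the log2 fold change turned for BOK (-0.072 to 0.64), BBC3 (-1.03 to 0.56), BCL2L11 (-0.51 to 0.11), BID (-0.12 to 0.69), BIK (-0.52 to 0.84), HRK (-1.56 to 0.0016), BIRC2 (-0.065 to 0.44), BIRC6 (-0.20 to 0.12), CYCS (-0.52 to 0.55), CASP9 (-0.41 to 0.26), CASP2 (-0.44 to 0.30), CASP6 (-0.096 to 0.34), CASP8 (-0.62 to 0.86) and CFLAR (-0.11 to 0.45). The cause was not tested. In these fits a lone library is assumed to vary as the other group does. The median standard error of 0.33 with 2 libraries per group limits what could be detected.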
